A study of Mus musculus with 12 samples.

Results

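Tgfb1, Ltbp1, Ltbp2, Acvrl1 and Acvr1b encode a ligand of the TGF-β family, 2 latent TGF-β binding proteins and 2 type I receptors. They were taken by symbol from a table of 658 mouse genes, and all 5 were found. The libraries came from wild-type (WT) mouse bone marrow mesenchymal stem cells (BMSCs), adherent stromal cells of the marrow with osteogenic, adipogenic and chondrogenic potential. All cultures were kept in an osteogenic medium with 15% fetal bovine serum, to which ascorbic acid (50 µM), dexamethasone (100 nM) and sodium β-glycerophosphate (10 mM) had been added. One group of 6 libraries also received the agent that the labels spell α-Asaronel, read here as α-asarone, a phenylpropanoid of Acorus oils, and the other 6 were controls without it. Its dose and exposure time are not stated in the labels. Nor do they say whether the 6 libraries of a group came from separate animals or cultures, so p-values measure only the spread between these libraries.

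TGF-β1 is secreted in a latent form, still held by its own propeptide, and LTBP1 ties this latent complex covalently to fibrillin-rich matrix until integrins or proteases free the ligand. LTBP2 is a matrix protein of the same family that is known for fibrillin and elastic fibre assembly and does not bind the latent ligand in that way. Free ligands of the family bring together type II and type I receptor kinases, which phosphorylate Smad proteins. ACVR1B (ALK4) is the type I receptor of activins and acts through Smad2 and Smad3, and ACVRL1 (ALK1) answers BMP9 and BMP10, and TGF-β in endothelial cells, through Smad1 and Smad5. In bone, matrix-stored TGF-β1 is known to recruit and steer osteoblast precursors. The main TGF-β receptors, Tgfbr1 and Tgfbr2, were not analysed here.

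With α-asarone the ligand and its matrix anchor moved in opposite directions. Tgfb1 rose 1.12-fold and Ltbp1 fell 1.22-fold, while Ltbp2 did not pass the test. The receptors also parted, with Acvr1b 1.14-fold higher and Acvrl1 1.13-fold lower, though the Acvrl1 call was lost under 5 of 23 alternatives. By edgeR's quasi-likelihood test with Benjamini-Hochberg adjustment over the 512 genes tested, 4 of the 5 genes passed at an adjusted p under 0.05, against 30.3% of all tested genes. Higher calls made up 12.9% and lower calls 17.4% of all tested genes, and the 5 genes held 2 of each. Higher calls were 42.6% of all calls, and 67.2% when library totals of the table replaced TMM. In 3 of the 5 genes the 2 groups had no library in common range, which was so in 14.3% of all tested genes. The median absolute log2 fold change was 0.08 over all tested genes and 0.20 over the called ones, so these changes were of the usual size for called genes.

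Total estimated counts over the table's genes ranged from 843595 to 1224256 per library, and these are part of each library, not its depth. In the 5 genes the estimated counts ran from 423 to 709 for Acvrl1, from 544 to 989 for Acvr1b, from 2416 to 4039 for Tgfb1, from 2679 to 4075 for Ltbp1 and from 5810 to 8687 for Ltbp2. All of them were whole numbers.

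Sequences around the start sites are shown for the genes that rose, Tgfb1 and Acvr1b, and for both starts of Ltbp1, the gene that fell most. Each runs 5′ to 3′ on the gene's strand from 250 bases before to 50 bases after a RefSeq start (GRCm38.p6), and 4 of the 5 genes had an entry. Capitals mark matches, on either strand, to 5 motifs searched in all windows, with positions counted from the start site. These were the GC box GGGCGG, the TATA box TATAAA, the cyclic AMP response element TGACGTCA, the Smad-type element CAGACA, and the AP-1 site TGANTCA.
Tgfb1 (chr7:25686752-25687051, plus strand): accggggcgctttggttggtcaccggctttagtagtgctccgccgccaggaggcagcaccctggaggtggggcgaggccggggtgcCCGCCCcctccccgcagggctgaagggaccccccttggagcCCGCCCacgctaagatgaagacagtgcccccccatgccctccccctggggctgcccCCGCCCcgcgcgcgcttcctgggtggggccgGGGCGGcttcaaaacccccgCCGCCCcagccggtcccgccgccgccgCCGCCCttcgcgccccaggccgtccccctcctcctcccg
Acvr1b (chr15:101173822-101174121, plus strand): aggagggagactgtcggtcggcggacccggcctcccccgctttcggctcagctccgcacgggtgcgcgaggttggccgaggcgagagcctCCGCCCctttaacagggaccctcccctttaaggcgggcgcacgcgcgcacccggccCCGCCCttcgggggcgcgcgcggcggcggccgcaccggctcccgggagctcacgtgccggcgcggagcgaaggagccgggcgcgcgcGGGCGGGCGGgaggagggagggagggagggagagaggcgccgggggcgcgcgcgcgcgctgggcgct
Ltbp1, first start (chr17:75005279-75005578, plus strand): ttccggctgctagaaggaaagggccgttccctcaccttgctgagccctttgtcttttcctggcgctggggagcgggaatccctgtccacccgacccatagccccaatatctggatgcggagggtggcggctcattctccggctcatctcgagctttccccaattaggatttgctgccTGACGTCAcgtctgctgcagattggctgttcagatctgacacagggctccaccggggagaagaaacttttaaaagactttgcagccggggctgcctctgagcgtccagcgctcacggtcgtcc
Ltbp1, second start (chr17:75178531-75178830, plus strand): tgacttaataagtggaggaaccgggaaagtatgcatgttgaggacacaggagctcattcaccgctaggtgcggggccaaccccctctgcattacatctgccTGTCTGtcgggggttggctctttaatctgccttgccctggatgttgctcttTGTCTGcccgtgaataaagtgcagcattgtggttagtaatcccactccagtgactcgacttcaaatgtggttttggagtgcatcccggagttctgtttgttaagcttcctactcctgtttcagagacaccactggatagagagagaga

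The windows of the genes that rose were rich in G and C, at 77.0% for Tgfb1 and 79.7% for Acvr1b, against a median of 52.7% over 32817 mouse windows. Tgfb1 held 6 GC boxes, beginning at positions -164, -123, -67, -36, -16 and 12. Acvr1b held 4, at -160, -104, -17 and -13, the last 2 overlapping each other. The Ltbp2 window, with 61.0% G and C, held 2, and Acvrl1, which also fell, had no window. A GC box was present in 35.6% of all windows. The first start of Ltbp1 had 58.7% G and C and a TGACGTCA at -73, an element found in 1.79% of windows. The second start had 50.0% G and C and CAGACA on the opposite strand at -149 and -98, an element of 21.0% of windows. No window of these genes held TATAAA or TGANTCA, which occurred in 13.6% and 7.81% of all windows. A match is a string of letters and was not tested as a binding site.

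Tgfb1 (ENSMUSG00000002603, chromosome 7, 25687002 to 25705077, plus strand, GRCm38) encodes the ligand TGF-β1. It had 178, 181 and 193 TPM (lowest, median and highest of 6 libraries) under α-asarone, and 158, 164 and 167 TPM in the controls. TPM is a transcript level corrected for length and scaled to a fixed total per library. Every α-asarone library lay above every control. The means were 183 ± 6.11 and 164 ± 3.24 TPM (SD, n = 6 each), and the log2 fold change, α-asarone minus control, was 0.17 ± 0.03 (SE; adjusted p = 1.36e-05, edgeR), a rise of 12.4% (95% confidence interval, 8.16% to 16.8%). An exact 2-sided test by permutation of log2(TPM + 1) gave p = 0.00216, the smallest that its arrangements allow.

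Ltbp1 (ENSMUSG00000001870, chromosome 17, 75005568 to 75392512, plus strand) encodes the protein that anchors latent TGF-β in the matrix. It had 65.6, 67.1 and 67.8 TPM (lowest, median and highest) under α-asarone, and 80.2, 81.3 and 85.0 TPM in the controls. The groups were far apart relative to their spread, with 66.9 ± 0.992 against 81.7 ± 1.72 TPM (SD, n = 6 each). Its log2 fold change was −0.29 ± 0.02 (SE; adjusted p = 9.6e-11, edgeR), a change of −18.2% with an interval from −21.0% to −15.3%. It ranked 10 among the 512 genes by p. The exact permutation p was again 0.00216.

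Ltbp2 (ENSMUSG00000002020, chromosome 12, 84783212 to 84876532, minus strand) was expressed at a higher TPM than Ltbp1 in every library. It had 130.4, 139 and 152 TPM (lowest, median and highest) under α-asarone, and 129, 151 and 163 TPM in the controls, and the groups overlapped over most of their range. The means were 140.1 ± 6.95 and 149 ± 12.5 TPM (SD, n = 6 each). The log2 fold change was −0.03 ± 0.03 (SE; adjusted p = 0.423, edgeR), with an interval of −5.87% to 1.82% that lies apart from that of Ltbp1. The exact permutation p was 0.203. Whether the changes of Ltbp1 and Ltbp2 differ was not tested. D030025P21Rik, an antisense RNA gene, overlaps the start of Ltbp2, and without known strand in the libraries its reads cannot be told apart.

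**Figure D1:**
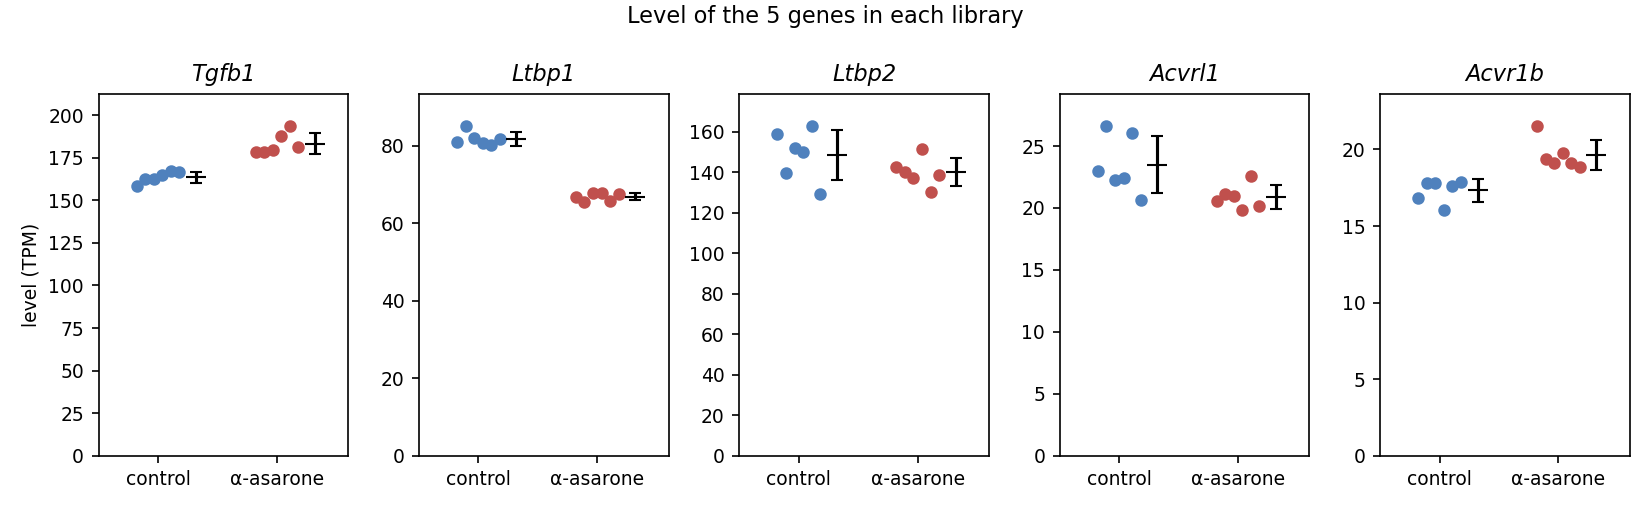
Level (TPM) of Tgfb1, Ltbp1, Ltbp2, Acvrl1 and Acvr1b in each of 6 control (blue) and 6 α-asarone (red) libraries, with the mean and SD of each group as a black bar. The groups do not overlap for Tgfb1 and Acvr1b, which were higher with α-asarone, or for Ltbp1, which was lower, and they overlap for Ltbp2 and Acvrl1.

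The deposited counts and TPM together gave a further reading for these genes, the mean length of their transcripts in each library. The ratio of count to TPM, divided by a scale common to a library, equalled the annotated length within 0.1% for 16 of 17 well-counted genes of the table that have 1 annotated transcript. The same 17 genes set that scale, and the remaining gene was off by up to 18.2%. Acvr1b, which has 1 annotated transcript of 4418 nt, is among the 17 and came out at 4418 nt in every library. Its match is thus not a separate check. Tgfb1 lay between 2153 and 2175 nt, and its coding transcript has 2175 nt.

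For Ltbp1 the mean transcript length was 5138 to 5218 nt over the 12 libraries. The annotated coding transcripts from the first start have 6235 and 6671 nt, and 1 from the second start, with 30 exons, has 5140 nt. That second start is the one whose window holds the CAGACA matches printed above. The mean exceeded 5140 nt by over 0.1% in α-asarone replicates 3 to 6 and control replicates 1, 2, 3 and 5. It was greatest in control replicates 1 and 2, at 5201 and 5218 nt. A mean cannot tell a single transcript from a mix. The length was 5157 ± 14.4 nt with α-asarone and 5170 ± 32.7 nt in controls (SD, n = 6 each; exact permutation p = 0.408), so the fall of Ltbp1 came with no detected change in mean length.

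Ltbp2 behaved differently, with a mean transcript length from 5168 to 6057 nt. This lies between the long coding transcripts of 6470 to 6769 nt and the short ones of 547 to 922 nt, and it varied most among controls. A transcript of 4015 nt with a retained intron is also annotated, and which transcripts made up the mean was not tested. Control replicate 6 had the lowest TPM (129) and the greatest length (6057 nt), and control replicate 5 the highest TPM (163) at 5172 nt. When TPM was recomputed with 1 length for the gene, an alternative chosen after seeing the data, the control SD went from 12.5 to 4.05 TPM. The α-asarone mean was then 142 ± 7.50 TPM and the control mean 145 ± 4.05 TPM (SD, n = 6 each; exact permutation p = 0.353). The length itself was 5711 ± 115 nt with α-asarone and 5537 ± 407 nt in controls (exact permutation p = 0.333). Over the 4 genes whose length was compared, Tgfb1, Ltbp1, Ltbp2 and Acvrl1, the exact permutation p-values ran from 0.333 to 0.801.

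**Figure D2:**
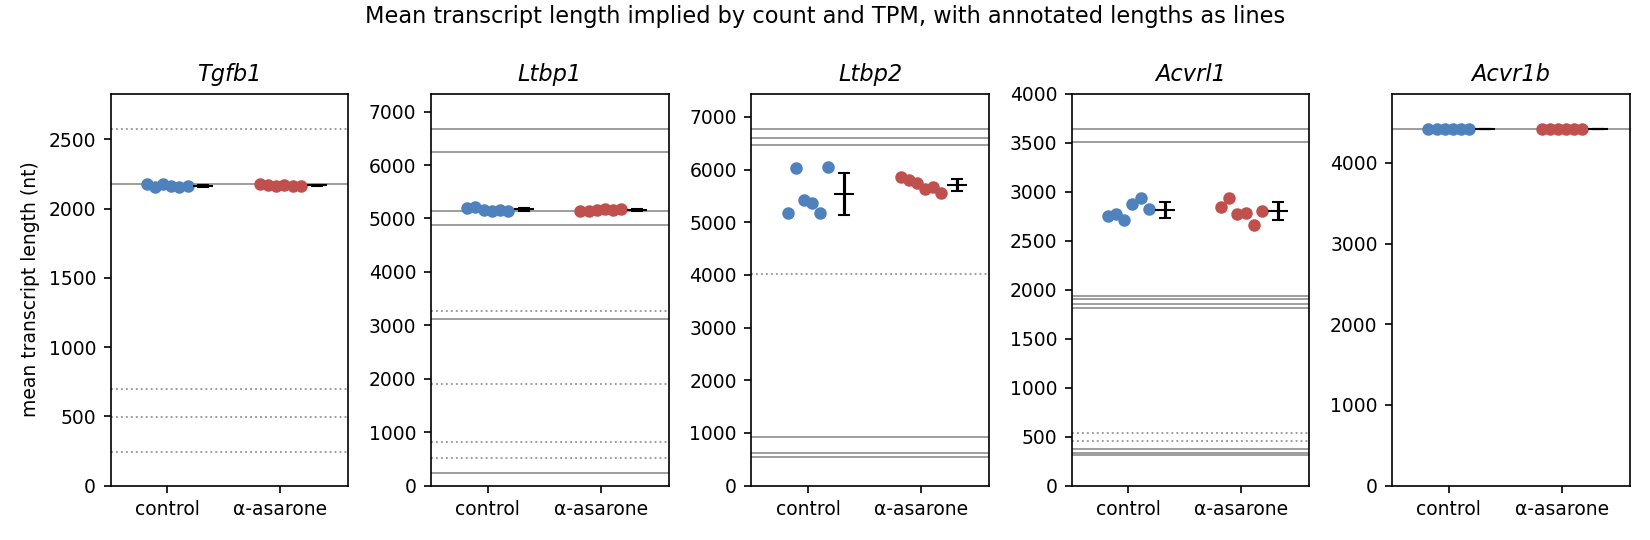
Mean transcript length (nt) implied by count and TPM in each library for the 5 genes, controls in blue and α-asarone in red, with the mean and SD as black bars and each annotated transcript as a grey line (solid for coding, dotted for other). Ltbp1 lies between 5138 and 5218 nt, at or a little above the line of its 5140 nt transcript, while Ltbp2 and Acvrl1 sit between their long and short transcripts.

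Acvr1b (ENSMUSG00000000532, chromosome 15, 101174067 to 101213684, plus strand) encodes the activin receptor ALK4. It had 18.9, 19.2 and 21.5 TPM (lowest, median and highest) under α-asarone, and 16.1, 17.7 and 17.9 TPM in the controls, with no overlap. The means were 19.6 ± 0.975 and 17.3 ± 0.745 TPM (SD, n = 6 each). The log2 fold change was 0.18 ± 0.04 (SE; adjusted p = 8.47e-04, edgeR), a rise of 13.6% with an interval from 7.18% to 20.4%. The exact permutation p was 0.00216.

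Acvrl1 (ENSMUSG00000000530, chromosome 15, 101128522 to 101145336, plus strand) encodes ALK1. It had 19.9, 20.8 and 22.6 TPM (lowest, median and highest) under α-asarone, and 20.6, 22.7 and 26.6 TPM in the controls. The α-asarone libraries lay within the lower part of the control range and slightly beneath it, so the groups overlapped. The means were 20.9 ± 0.951 and 23.5 ± 2.32 TPM (SD, n = 6 each), and the log2 fold change was −0.17 ± 0.06 (SE; adjusted p = 0.0195, edgeR), a change of −11.2% with an interval from −17.9% to −3.87%. The exact permutation p was 0.0281. Control replicates 2 and 5, at 26.6 and 26.0 TPM, stood above the other controls. Without control replicate 2 the edgeR adjusted p was 0.057, and without control replicate 5 it was 0.079. It was 0.060 with limma on log2(TPM + 1), which called 22.9% of the tested genes, and 0.082 when library totals of the table replaced TMM. None of the other 3 calls was lost in any of these settings. In controls the TPM varied by 9.89% (coefficient of variation), where counting error at a mean count of 581 would give 4.15%. An antisense RNA gene, Gm16031, overlaps Acvrl1.

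The receptor genes are neighbours on chromosome 15, on the same strand and 28730 bp apart, with no protein-coding gene annotated between them. Their TPM added up to between 39.0 and 42.1 with α-asarone and between 38.5 and 44.4 in controls, so the summed level overlapped. Inside a library the ratio of Acvrl1 to Acvr1b TPM was 0.958, 1.08 and 1.18 (lowest, median and highest) with α-asarone and 1.15, 1.38 and 1.49 in controls. Its median was lower with α-asarone, but the ranges overlapped slightly and the ratio was not tested. Acvr1b exceeded Acvrl1 in 1 of 12 libraries, α-asarone replicate 1.

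Ratios of the binding proteins to the ligand were lower in median with α-asarone. The ratio of Ltbp1 to Tgfb1 TPM was 0.340, 0.370 and 0.377 (lowest, median and highest) with α-asarone and 0.480, 0.497 and 0.523 in controls. This gap between the groups was wider than the whole range of either. The ratio of Ltbp2 to Tgfb1 TPM ran from 0.674 to 0.806 with α-asarone and from 0.775 to 1.002 in controls, with overlap. Ratios with Ltbp2 use the deposited TPM, and their overlap depends on its mean transcript length, which varied between libraries. With both binding proteins added together the ratio to Tgfb1 ran from 1.01 to 1.17 and from 1.27 to 1.51, without overlap. A ratio inside a library does not depend on the scaling between libraries, and these are given as descriptions, with no test.

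**Figure D3:**
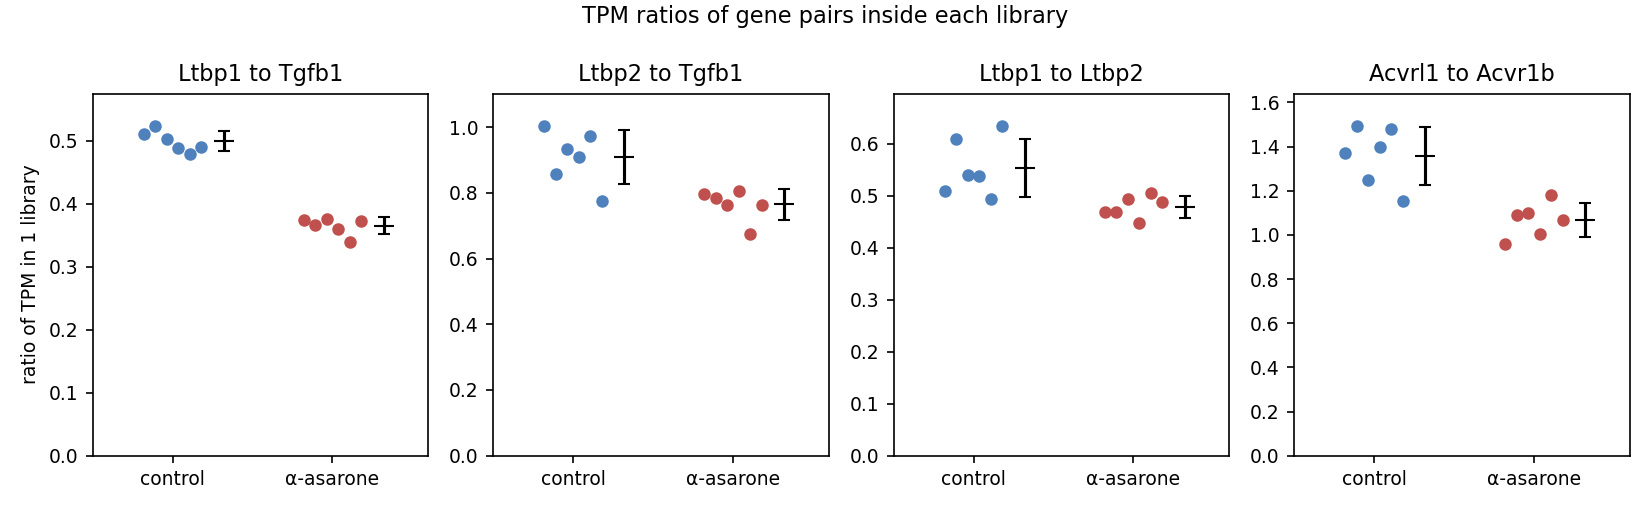
Ratio of TPM of gene pairs inside each library, controls in blue and α-asarone in red, with the mean and SD as black bars. The ratio of Ltbp1 to Tgfb1 is at most 0.377 with α-asarone and at least 0.480 in controls. The other 3 ratios overlap between the groups in the deposited TPM. For the ratios with Ltbp2 the overlap depends on its mean transcript length, which varied between libraries.

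In order of TPM the genes ran Tgfb1, Ltbp2, Ltbp1, Acvrl1 and Acvr1b in both groups. Tgfb1 was 41st and Acvr1b 344th of the 512 tested genes by mean TPM. In controls the deposited TPM of the neighbours Tgfb1 and Ltbp2 overlapped, with Ltbp2 above Tgfb1 in 1 of 6 libraries. At 1 length per gene the control ranges were apart, at 159 to 166 TPM for Tgfb1 and 138 to 149 TPM for Ltbp2. In α-asarone libraries the deposited TPM of Tgfb1 and Ltbp2 were separate, the lowest Tgfb1 value being 178 TPM and the highest Ltbp2 value 152 TPM. Acvrl1 and Acvr1b overlapped in that group. Ltbp1 was separate from both of its neighbours in either group.

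**Figure D4:**
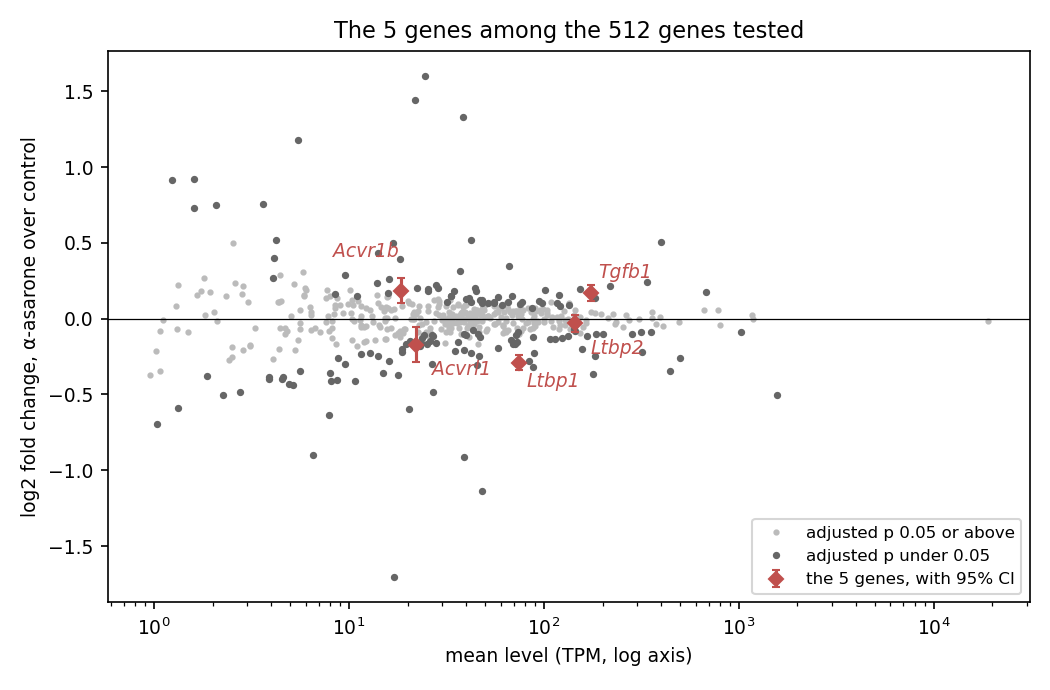
Log2 fold change (α-asarone over control) against mean TPM (log axis) for the 512 tested genes, dark where the edgeR adjusted p was under 0.05, with the 5 genes as red diamonds and their 95% confidence intervals. Tgfb1 and Acvr1b lie above 0, Ltbp1 and Acvrl1 below it, and the interval of Ltbp2 spans 0.

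The deposited annotation ties these genes together in part. Its TGF-beta signaling pathway term lists Tgfb1, Ltbp1 and Acvr1b among 5 genes of the table. The same 3 genes are the only 3 of the table under positive regulation of collagen biosynthesis, a term that holds both genes that rose and the one that fell most. Acvrl1 and Acvr1b are the only 2 of the table with type I activin receptor activity. Ltbp1 and Ltbp2 share calcium ion binding with 34 genes in all.

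Of 173 genes in 5 lists of the wider pathway, 15 were in the table and 13 were tested, and beside the 5 genes above these were 8. Among the 8, 1 rose and 4 fell, against 12.9% higher and 17.4% lower among all tested genes, and their median log2 fold change was −0.06 against 0.00. The list of TGF-β targets held 6 of them, with 1 higher and 3 lower. Cnn1, the gene of the contractile protein calponin 1, fell most, from 26.1 ± 3.50 to 8.14 ± 1.13 TPM (SD, n = 6 each; log2 fold change −1.71). Col1a1, which encodes the α1 chain of type I collagen and is a classical TGF-β target, fell from 1852 ± 141 to 1304 ± 78.8 TPM (log2 fold change −0.50). Sox9, the transcription factor gene of cartilage, fell by 0.26 on the log2 scale, a call lost with limma on log2(TPM + 0.1) (adjusted p = 0.051).

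Loxl3, of the lysyl oxidases that crosslink collagen, was the target that rose, from 203 ± 6.88 to 235 ± 6.23 TPM (SD, n = 6 each; log2 fold change 0.22). Timp1, the inhibitor of matrix metalloproteinases, did not pass, at 786 ± 72.1 against 809 ± 37.1 TPM, nor did the platelet-derived growth factor gene Pdgfb, at 1.66 ± 0.185 against 1.67 ± 0.633 TPM. Among genes of storage and activation, Mmp14, a membrane protease that can release latent TGF-β, had 359 ± 8.01 against 357 ± 10.1 TPM and did not pass.

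Sp1, the gene of the factor that binds GC boxes and partners with Smads, went from 45.2 ± 2.26 TPM in controls to 41.5 ± 0.834 TPM (SD, n = 6 each; log2 fold change −0.07, edgeR adjusted p = 0.028). This fold change is from the counts, and limma on log2(TPM + 1) gave −0.12. The Sp1 call was lost under 8 of 23 alternatives, among them table totals (adjusted p = 0.410) and without control replicate 1, 4, 5 or 6 or α-asarone replicate 4 (adjusted p from 0.054 to 0.073). The ligand gene Bmp8b was below the filter, at no more than 0.777 TPM in any library, and Sost, a secreted antagonist of osteocytes, was listed at 0 in all 12.

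**Figure D5:**
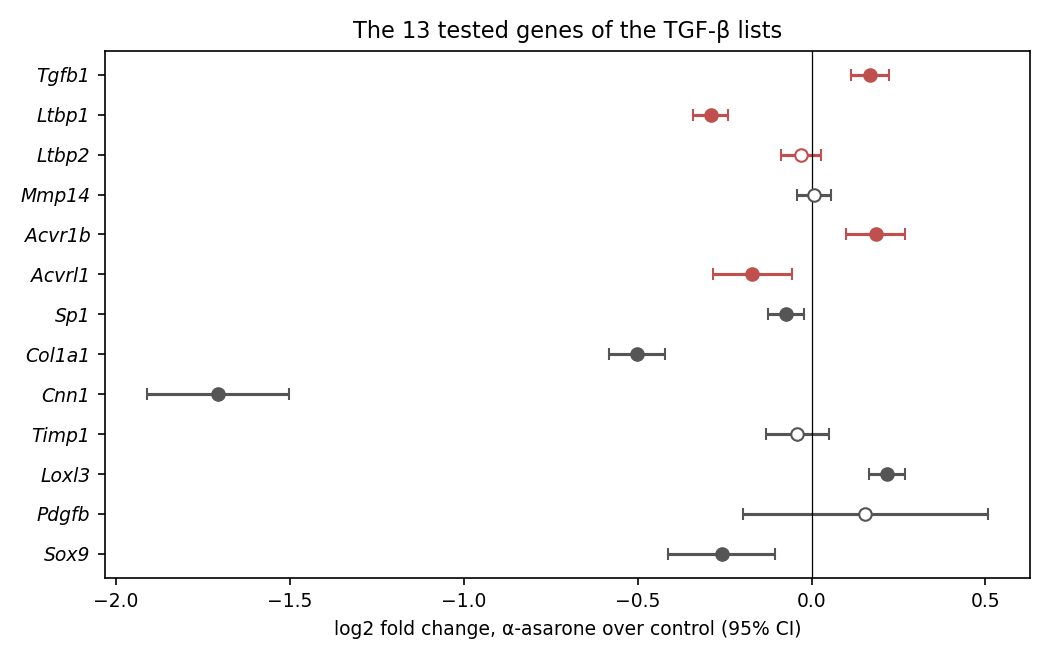
Log2 fold change (α-asarone over control) with its 95% confidence interval for the 13 tested genes of the TGF-β lists, the 5 genes in red and the others in grey, filled where the edgeR adjusted p was under 0.05. The points lie on both sides of 0, from −1.71 for Cnn1 to 0.22 for Loxl3.

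Markers of cells that a marrow culture can hold are given beside these results, since in bulk RNA fewer cells of a type and less RNA per cell cannot be told apart. Genes of macrophages, which also make TGF-β1, were abundant, with 6 of 60 listed genes in the table summing to between 1103 and 1259 TPM under α-asarone and between 987 and 1108 TPM without it. Of these Cfp and Spi1 rose (log2 fold change 0.51 and 0.19), Cd52 and Itgb2 fell (−0.32 and −0.10), and Clec10a did not pass (0.11). The Itgb2 call was lost with table totals (−0.06, edgeR adjusted p = 0.051). Cfp, the properdin gene, had the widest gap in level, with 469 ± 45.6 TPM against 332 ± 23.1 TPM in controls (SD, n = 6 each). Vwf and Esam, genes of endothelial cells, the main known site of ALK1, reached at most 1.33 and 1.16 TPM, while Ramp2 of the same list rose from 11.8 ± 2.31 to 37.3 ± 2.98 TPM (SD, n = 6 each). Only Acp5 was in the table of 12 listed genes of osteoclasts, a source and a responder of TGF-β in bone. It fell from 66.6 ± 7.57 to 29.8 ± 5.07 TPM.

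Of the stromal and osteoblast list 5 of 27 genes were in the table, with Col1a1 lower, Col6a1 higher (log2 fold change 0.18) and Sost at 0. Their summed level ran from 1927 to 2185 TPM under α-asarone, and from 2367 to 2747 TPM in the controls. Col1a1 alone carried the lower sum, since Col6a1 went from 641 ± 8.55 to 724 ± 18.3 TPM (SD, n = 6 each) and the rest were near 0. The adipocyte list had 4 of 5 tested genes higher (Plin4, Cd36, Lipe and Angptl4), against 12.9% of all tested genes, and Pparg did not pass. The smooth muscle and cartilage lists each had 1 gene, Cnn1 and Sox9, given above. Of the lymphocyte list, Cd3g and Vpreb3 were at 0 in every library and Cd79a reached 0.0990 TPM. The part that such cells have in the changes of Tgfb1, Ltbp1, Acvrl1 and Acvr1b was not tested.

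The profiles most like each gene were taken by Pearson's r of log2(TPM + 1) over the 12 libraries, which share the group difference and their depth. Nearest to Tgfb1 were Loxl3 (0.93), Angptl4 (0.91) and Ramp2 (0.89). Nearest to Ltbp1 were Fkbp10 (0.98), a gene of a collagen chaperone, Col1a1 (0.97) and Klf4 (0.96). For Acvr1b they were Lipe (0.90), Unc119 (0.89) and Mef2d (0.89), for Acvrl1 Mien1 (0.86), Ncstn (0.81) and S100a4 (0.79), and for Ltbp2 Foxm1 (0.84), Sox9 (0.68) and Gmpr (0.67). Values for Ltbp2, here and below, use its deposited TPM, and how far they reflect its varying mean transcript length was not tested.

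With each group's mean taken away, the value for Tgfb1 was 0.49 with Loxl3, −0.07 with Angptl4 and −0.01 with Ramp2. For Ltbp1 it was 0.60 with Fkbp10, 0.69 with Col1a1 and 0.32 with Klf4, and for Acvr1b it lay between 0.61 and 0.66. The values changed less for Acvrl1, at 0.88 with Mien1, 0.69 with Ncstn and 0.72 with S100a4, and for Ltbp2, at 0.83 with Foxm1 and 0.61 with both Sox9 and Gmpr. Tgfb1 and Ltbp1 had −0.91 over all libraries and −0.15 within the groups. Within the groups the pairs of the 5 genes ranged from −0.25 to 0.24.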

How the data were processed

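Per the file headers, the authors' table gives each gene a TPM value and an estimated count in each of 12 poly(A) RNA libraries. GRCm38 and mm10 are named in the submitters' processing notes, while the aligner and the quantifier are not stated there. The 658 genes analysed here all matched GENCODE M21 by identifier, and in TPM they made up between 5.36% and 5.67% of each transcriptome.

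Estimated counts as deposited were rounded to whole numbers, scaled by TMM (0.976 to 1.03) and tested with edgeR 4.0.16 (glmQLFit, glmQLFTest; R 4.3.3), without covariates. The filter was 1 TPM in 6 or more libraries, which left 512 genes, and calls were made at 0.05 after Benjamini-Hochberg adjustment. The fit was tested on simulated data. Each of the 5 genes was also compared by an exact permutation test. All 30 replicate pairs differed by more than sampling noise (chi-square per degree of freedom, 2.24 to 11.2). Alternatives were limma 3.58.1, DESeq2 1.42.0, other filters and scalings, a replicate block and each library left out. The genes named were the 5, those of the pathway lists, called marker genes and the 3 profiles most like each gene. Vwf, Esam, Cd3g, Vpreb3, Cd79a, Clec10a and Pparg were added after their values were seen. Genes, lists and tests were chosen with earlier results of these data known.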

Additional observations from a re-analysis of the deposited data

Results flagged for a closer look

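Single libraries that stood apart were sought in 34 groups of 6 values, which were levels, ratios and mean lengths of the 5 genes and total counts. A library stood apart where its gap to the next value, divided by the group's range, exceeded Dixon's 95% critical value. This held in 7 groups, against about 1.7 by chance, and groups that share a gene are not independent.

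Ltbp1 reached 85.0 TPM in control replicate 2, above a range of 80.2 to 81.9 TPM in the remaining controls, and so lay farthest from the α-asarone group. That library also had the lowest total count of the controls, 843595, where the rest ran from 1068547 to 1173845. Acvr1b reached 21.5 TPM in α-asarone replicate 1, above a range of 18.9 to 19.8 TPM in the rest of the group. The mean transcript length of Tgfb1 was 2175 nt in that library and 2164 to 2168 nt in the rest. In α-asarone replicate 5 the ratio of Ltbp2 to Tgfb1 was 0.674 (rest of the group 0.762 to 0.806) and that of both binding proteins to Tgfb1 was 1.01 (rest 1.14 to 1.17). In control replicate 4 the ratio of Tgfb1 to Acvr1b was 10.3, and in the remaining controls 9.11 to 9.50.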

How the results depend on the processing

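Tgfb1, Ltbp1 and Acvr1b kept their direction and their call under all 23 alternatives run, with log2 fold changes from 0.15 to 0.21, from −0.30 to −0.25 and from 0.16 to 0.23. Ltbp2 was not called under any of them, and its sign turned when table totals replaced TMM (0.011). Acvrl1 was lower under all 23, but its call was lost with table totals (−0.13), with limma on log2(TPM + 1) (−0.16) and on log2(TPM + 0.1) (−0.17), and without control replicate 2 or 5. With single libraries left out its change ran from −0.21 to −0.13. The cause of the lost calls was not tested. Between 138 and 152 genes were called with a library left out, and between 116 and 189 in the other settings, against 155. Table totals moved the share of higher calls from 42.6% to 67.2%.

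The correlation of deviations between libraries with the same number lay between −0.003 and 0.128, with 2 of 6 best matched to their own number. Under the replicate block 168 genes were called, with 0.17 for Tgfb1, −0.29 for Ltbp1, −0.03 for Ltbp2, −0.17 for Acvrl1, 0.18 for Acvr1b, and no call changed among the 5 genes. The permutation results kept their side of 0.05 with a pseudocount of 0.1 and at 1 length per gene. Over 28 other named genes 612 of 643 alternative values kept the call. In 27, for Sp1, Sox9, Itgb2, Gmpr and Ncstn, a call was lost. In 4, each without 1 library, the sign of an uncalled gene turned, Mmp14 ranging from −0.0027 to 0.018 and Timp1 from −0.079 to 0.0018. Counting error alone would give a coefficient of variation of 3.65% to 4.44% for Acvrl1 and Acvr1b and of 1.18% to 1.83% for the other 3 genes.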
